A study of Mus musculus with 8 samples.

Results

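Melanoma cells grown on a matrix laid down in TCM by siKLF4-treated cells were compared with melanoma cells grown on the matching siNT matrix. This pair is 2 of the 8 libraries of the series, TCM siKLF4 and TCM siNT. Of 46477 rows of the deposited table, 2780 had an FPKM (fragments per kilobase, a level corrected for gene length and depth) of at least 5 in either library, and these rows are the features described. Differences are TCM siKLF4 minus TCM siNT on the log2(FPKM + 1) scale, which understates the change of low genes. A feature is said to have risen or fallen when the difference reached 1 in size. This is a size and not a test, because each side is 1 library with no replicate check and no label says that any libraries came from separate cultures.

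All 8 libraries hold total RNA of B16-F10 cells, a pigmented mouse melanoma line, taken 24 hours after plating on cell-free matrix. The matrix came from SMCs, read here as smooth muscle cells, that had received siRNA for 72 hours, spent another 72 hours in SFM or TCM, and were then lysed. The title of the series names B16-F10 tumor conditioned media, read here as TCM, and the labels spell out neither SFM nor siNT. The 4 siRNA treatments in each medium were siNT, siKLF4, siFN and siKLF4-siFN. In both libraries of the pair the siRNA and TCM had gone to the SMCs, and the matrix was washed before the melanoma cells were plated. The medium of the melanoma cells is not named in the labels, which do not say whether the SMCs were a line or primary cells. The comparison asks whether siKLF4 in the cells that made the TCM matrix was followed by a different melanoma RNA profile.

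Klf4 is a transcription factor with a part in the switch of smooth muscle cells away from their contractile state, and fibronectin is a matrix protein that many cells bind through integrins. Cells that enter division switch on genes in waves, with genes of DNA synthesis carrying E2F sites and genes of mitosis carrying CHR and CCAAT boxes, while interferon induces a separate group through a promoter element called the ISRE. When protein folding or amino acid supply is strained, cells raise chaperone genes and the targets of the factors ATF4 and CHOP.

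Promoters of the leading genes of 3 lists (mitosis, DNA replication, interferon) are shown because those lists are known for these boxes. They are the 3 largest rises with a RefSeq promoter in the table used here (build GRCm38.p6), whether or not a box was present, and 250 bases before to 50 bases after the annotated start are printed 5′ to 3′. Both strands were searched. For the mitosis genes, capitals mark the CHR letters (TTTGAA or TTCGAA) and the CCAAT letters.
Ccnb1 (chr13:100786437-100786736, minus strand): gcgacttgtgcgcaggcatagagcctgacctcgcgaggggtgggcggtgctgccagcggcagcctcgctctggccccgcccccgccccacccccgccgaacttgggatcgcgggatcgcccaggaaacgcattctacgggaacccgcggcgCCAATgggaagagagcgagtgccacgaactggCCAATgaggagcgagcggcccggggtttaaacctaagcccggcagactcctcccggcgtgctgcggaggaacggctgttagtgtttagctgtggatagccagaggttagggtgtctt
Cdc20 (chr4:118437294-118437593, minus strand): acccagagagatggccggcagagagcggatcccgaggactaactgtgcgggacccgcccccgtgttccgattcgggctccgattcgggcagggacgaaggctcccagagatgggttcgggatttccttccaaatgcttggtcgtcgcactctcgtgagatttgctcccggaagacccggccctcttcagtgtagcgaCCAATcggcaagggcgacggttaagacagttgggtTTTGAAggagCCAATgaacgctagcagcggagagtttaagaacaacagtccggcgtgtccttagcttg
Birc5 (chr11:117848987-117849286, plus strand): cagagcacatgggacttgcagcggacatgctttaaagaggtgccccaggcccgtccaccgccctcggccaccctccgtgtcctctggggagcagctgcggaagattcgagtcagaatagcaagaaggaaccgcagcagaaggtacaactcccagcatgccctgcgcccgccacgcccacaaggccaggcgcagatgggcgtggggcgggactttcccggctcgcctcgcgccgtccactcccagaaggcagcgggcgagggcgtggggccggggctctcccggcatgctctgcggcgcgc
The window of Cdc20 held 1 CHR match and 2 CCAAT matches, that of Ccnb1 held 2 CCAAT matches and no CHR letters, and that of Birc5 held neither. Over the list, 30 of 36 promoters (83.3%) held CHR letters against 19.2% of the 32851 promoters in the table. CCAAT letters stood in 77.8% against 37.4%.

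For the genes of DNA synthesis, capitals mark E2F letters (TTTCGCG, the variant TTTGGCG, or the variant TTTCCCG) and CCAAT letters.
Rrm2 (chr12:24708004-24708303, plus strand): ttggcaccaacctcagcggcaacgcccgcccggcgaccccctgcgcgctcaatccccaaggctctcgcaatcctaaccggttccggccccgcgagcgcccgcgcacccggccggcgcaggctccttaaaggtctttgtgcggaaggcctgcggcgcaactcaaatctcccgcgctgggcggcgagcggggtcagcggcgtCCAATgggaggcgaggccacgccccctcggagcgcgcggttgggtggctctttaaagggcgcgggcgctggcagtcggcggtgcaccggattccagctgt
Mcm3 (chr1:20820263-20820562, minus strand): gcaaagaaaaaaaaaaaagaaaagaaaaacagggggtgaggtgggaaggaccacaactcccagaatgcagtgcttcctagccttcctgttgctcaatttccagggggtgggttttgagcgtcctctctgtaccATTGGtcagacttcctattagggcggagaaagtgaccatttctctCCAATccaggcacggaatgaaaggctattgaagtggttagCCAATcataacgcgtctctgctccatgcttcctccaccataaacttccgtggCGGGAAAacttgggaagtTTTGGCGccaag
Uhrf1, upstream start (chr17:56303087-56303386, plus strand): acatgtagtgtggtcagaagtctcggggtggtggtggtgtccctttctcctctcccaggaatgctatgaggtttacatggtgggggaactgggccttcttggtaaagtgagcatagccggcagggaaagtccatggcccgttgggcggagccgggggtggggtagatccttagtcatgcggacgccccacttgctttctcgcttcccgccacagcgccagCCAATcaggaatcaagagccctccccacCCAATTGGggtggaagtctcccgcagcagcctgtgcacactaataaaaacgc
Uhrf1, downstream start (chr17:56304063-56304362, plus strand): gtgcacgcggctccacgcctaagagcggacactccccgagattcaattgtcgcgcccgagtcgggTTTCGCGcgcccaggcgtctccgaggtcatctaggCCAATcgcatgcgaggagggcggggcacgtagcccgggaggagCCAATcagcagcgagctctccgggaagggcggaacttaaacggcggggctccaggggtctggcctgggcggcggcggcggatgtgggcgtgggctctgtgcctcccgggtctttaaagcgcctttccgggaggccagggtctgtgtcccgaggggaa
Rrm2 had 1 CCAAT match and no E2F letters, Mcm3 had 2 E2F matches, and Uhrf1 had an E2F match at its downstream start. In the first Uhrf1 window the CCAAT letters of both strands overlap. E2F letters stood in 44.7% of the 38 promoters of the list and in 5.58% of all promoters.

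For the interferon genes, capitals mark ISRE letters (GAAANNGAA).
Cxcl10 (chr5:92348840-92349139, minus strand): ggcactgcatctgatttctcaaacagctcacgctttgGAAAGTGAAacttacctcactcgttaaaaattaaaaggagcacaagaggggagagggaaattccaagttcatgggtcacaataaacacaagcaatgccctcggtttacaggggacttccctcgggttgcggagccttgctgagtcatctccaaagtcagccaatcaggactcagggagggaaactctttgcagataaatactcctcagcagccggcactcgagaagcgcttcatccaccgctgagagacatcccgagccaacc
Isg15 (chr4:156200769-156201068, minus strand): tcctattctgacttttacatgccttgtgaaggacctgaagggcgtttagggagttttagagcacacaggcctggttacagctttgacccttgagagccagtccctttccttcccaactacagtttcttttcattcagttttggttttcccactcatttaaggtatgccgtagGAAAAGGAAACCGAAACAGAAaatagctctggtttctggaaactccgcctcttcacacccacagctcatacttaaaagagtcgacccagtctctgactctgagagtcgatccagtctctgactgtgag
Ifit3 (chr19:34583279-34583578, plus strand): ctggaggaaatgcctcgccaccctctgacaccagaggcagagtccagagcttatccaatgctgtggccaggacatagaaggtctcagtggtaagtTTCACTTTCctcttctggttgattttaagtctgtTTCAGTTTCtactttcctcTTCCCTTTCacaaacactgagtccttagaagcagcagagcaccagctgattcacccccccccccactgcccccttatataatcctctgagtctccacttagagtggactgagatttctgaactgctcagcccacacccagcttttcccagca
Cxcl10 had 1 such match and Ifit3 had 3, while the 3 of Isg15 overlap one another. The letters stood in 55.2% of the 29 promoters of the list and in 8.56% of all promoters. Such a match describes the letters in the window and is no evidence of binding.

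Klf4 stood at an FPKM of 8.04 in TCM siNT and 6.75 in TCM siKLF4, a difference of -0.22, and Fn1, which encodes fibronectin, at 2.93 and 2.63. The siRNA had been given to the cells that made the matrix, so neither value checks the labels. Of 10 melanoma and melanocyte markers, 9 reached an FPKM of 1 in the pair, Mitf being the exception at 0.284 and 0.557, and their summed FPKM was 717.0 in TCM siNT and 613.7 in TCM siKLF4 (479.3 to 745.5 over the 8 libraries). Of 15 smooth muscle markers, 2 reached an FPKM of 1, Mcam and Des. Acta2, Myocd, Pln and Kcnmb1 were listed at 0 in both libraries, although all 37 mitochondrially encoded rows were listed at 0 in every library as well, so that a listed 0 need not mean absent RNA. The summed smooth muscle list was 34.8 in TCM siNT and 24.6 in TCM siKLF4 (20.1 to 35.6 over the 8 libraries), nearly all of it Mcam, an adhesion molecule also made by melanoma cells, at 33.0 and 22.2. None of 13 fibroblast markers, 1 of 11 endothelial markers (Eng, 3.83 and 5.94) and 1 of 12 leukocyte markers (Cd68, 4.52 and 2.65) reached an FPKM of 1. Their summed FPKM ran from 0.437 to 0.604, from 3.76 to 5.98 and from 1.97 to 4.59 over the 8 libraries. The part of these markers in the differences below was not tested.

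The estimated depth was 13900000 reads in TCM siNT and 14300000 in TCM siKLF4, within the 11600000 to 23100000 of all libraries, so a gene of 2 kb at an FPKM of 5 had about 139 and 143 reads and a counting error of 8.49% and 8.35%. TCM siNT lay further from the other TCM libraries than these lay from each other, though by little for TCM siKLF4. Over the 6917 rows whose FPKM averaged 1 or more across the 8 libraries, its median absolute difference from them was 0.15 to 0.18. The 0.15 was from TCM siKLF4, which stood 0.14 from both TCM siFN and TCM siKLF4-siFN. TCM siFN and TCM siKLF4-siFN differed by 0.06. From the SFM libraries, TCM siNT differed by 0.16 (siFN), 0.19 (siKLF4), 0.21 (siNT) and 0.24 (siKLF4-siFN). Of all features, TCM siKLF4 lay above every library outside the pair in 17.4% and below every one in 2.37%. For TCM siNT these shares were 8.42% and 4.57%, so TCM siNT was not the only library set apart. With 1 library a side, every difference of the pair given below rests on the single libraries TCM siNT and TCM siKLF4.

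Of the 2780 features, 68 rose (2.45%) and 9 fell (0.324%), the median difference was 0.04, and 88.0% lay within 0.5 of 0. Named genes made up 39 of the rises and 4 of the falls, the other 34 features being gene models and pseudogenes. Of the 39 named rises, 15 belonged to the lists of mitosis or DNA replication and 5 to the list of interferon-stimulated genes and chemokines. Of the 1915 named features, 11 were in the mitosis list, 12 in the DNA replication list and 5 in the interferon list. All of these list rises except Rrm2 and Cxcl10 stood below 5 in TCM siNT, and so were features only because TCM siKLF4 reached 5. These counts therefore cannot show that the lists rose more often than other genes. Of the 68 rises, 45 had a mean FPKM under 10 in the pair, where 3.71% of 1293 features passed 1 in either direction. That share cannot show that low features rose more often. The filter admits a row below 5 in TCM siNT only if TCM siKLF4 reached 5, so unchanged rows at that level are left out. From a mean of 10 upwards the filter leaves out no row. There the share past 1 in either direction was 2.37% of 886 features at 10 to 30. It was 1.93% of 363 at 30 to 100 and 0.42% of 238 at 100 or more. With upper-quartile scaling 69 of the 77 calls remained, and 72 with the median difference set to 0. The named genes lost were Foxm1 under both and Rrm1 (0.99) under the first. Just inside the size of 1 stood Foxm1 (1.01) and Lgals3 (-1.03), and just outside it Ccng1 (0.99) and Ech1 (-0.98). Around the FPKM filter, Ciao1 and Magoh were just inside with 5.001 and 5.003 in the higher library, and Atg12 and Tada2b just outside with 4.99 each.

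**Figure D1:**
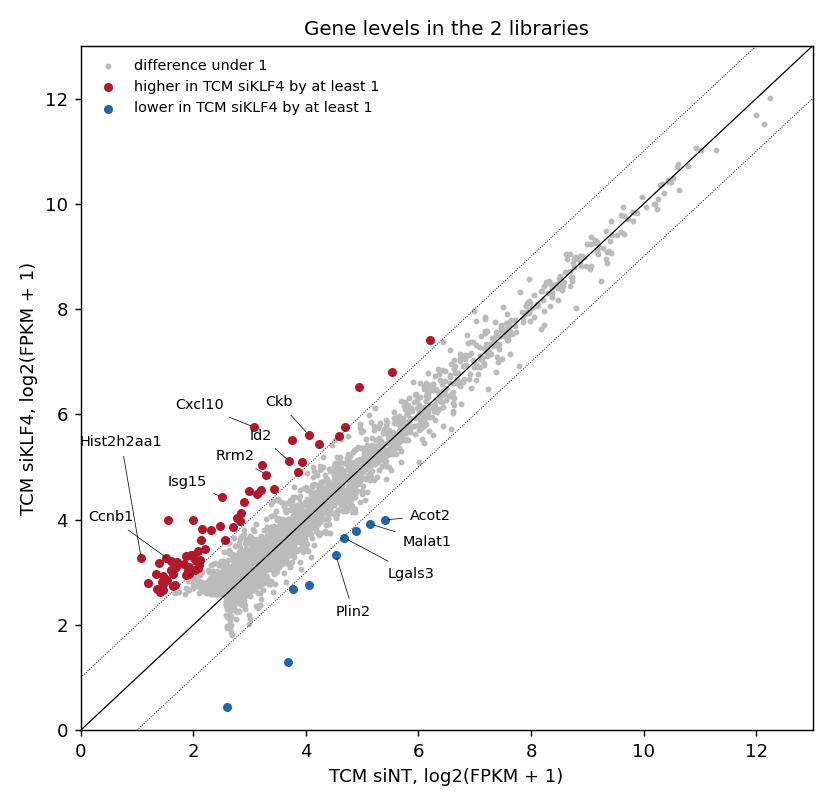
Level of each of the 2780 features in TCM siNT (x) and TCM siKLF4 (y), both as log2(FPKM + 1), 1 library on each axis. The solid line marks equal levels and the dotted lines a difference of 1. The 68 rises (red) lie mostly at low and middle levels, and the 9 falls (blue) include Acot2, Malat1, Plin2 and Lgals3.

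The interferon-stimulated genes gave the largest named difference. Cxcl10, a chemokine that draws in T cells (ENSMUSG00000034855.13, chromosome 5, 92346638 to 92348889, minus strand, mm10), stood at an FPKM of 7.50 in TCM siNT and rose to 53 in TCM siKLF4. The other TCM libraries had 50.8 (siFN) and 51.2 (siKLF4-siFN), and the SFM libraries 42.8 (siNT), 38.4 (siKLF4), 15 (siFN) and 3.82 (siKLF4-siFN). TCM siNT was thus low together with both SFM libraries that had siFN, and the difference of 2.67 is a ratio of 7.06 in FPKM. Isg15, a ubiquitin-like protein induced by interferon, went from 4.69 to 20.6 (1.92), with 18.6 and 18.2 in the remaining TCM samples. Its SFM values, ordered as for Cxcl10, were 17.5, 17.4, 11.4 and 4.02. Ccl5, another T cell chemokine, rose from 1.62 to 7.99 (1.78). The RNA-binding antiviral protein Ifit3 rose from 2.03 to 7.26 (1.45), and the antiviral enzyme Rsad2 from 3.04 to 8.65 (1.25). In Ccl5 and Ifit3, TCM siKLF4 held the highest or second highest of 8 values, while Rsad2 was higher in TCM siFN (11.2) and TCM siKLF4-siFN (10.9).

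The list holds 35 interferon genes, of which 24 were below an FPKM of 1 in every library and 5 passed the FPKM filter. Of the 8 whose FPKM averaged at least 1 across all libraries, 5 rose and none fell, and the median difference was 1.35. The median was 0.99 over the 10 genes that reached an FPKM of 1 in the pair and 0.23 over all 35. Over all 6917 rows chosen in that way, 108 rose (1.56%), 15 fell (0.217%) and the median was 0.04. Irf1, a factor that turns on interferon genes, had 0.697 and 1.61 (0.62), Ifit2 1.40 and 2.28 (0.45), and Bst2, which tethers viruses to the cell, 1.61 and 1.51 (-0.05). Ifitm3, which blocks virus entry and was not in the list, rose from 7.77 to 21.5 (1.36) and is named after its value was seen. Genes of MHC class I presentation had a median of 0.23 over 7 members and 0.0043 over the 5 that passed the FPKM filter, and none reached 1. B2m, its light chain, had 17.4 and 24.3 (0.46), and H2-D1 14.2 and 14.3.

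Most mitosis genes with a measured level rose. Ccnb1, the cyclin that starts mitosis (ENSMUSG00000041431.16, chromosome 13, 100778650 to 100786570, minus strand), rose from an FPKM of 2.04 to 8.30 (1.61), a ratio of 4.07. TCM with siFN had 8.33 without and 8.02 with siKLF4, and SFM had 9.38 (siNT), 7.83 (siKLF4), 0.962 (siFN) and 0.965 (siKLF4-siFN). The 8 values fall into 5 from 7.83 to 9.38, TCM siNT at 2.04 and both SFM libraries with siFN below 1. Cdc20, an activator of the complex that ends mitosis, rose from 3.96 to 13 (ratio 3.28), and Birc5, the survivin subunit of the chromosomal passenger complex, from 3.38 to 11.3 (1.49). Kif20a, a kinesin of cell cleavage, went from 1.77 to 6.59 (1.46), Ube2c, a ubiquitin-conjugating enzyme of the same complex as Cdc20, from 1.73 to 6.01 (1.36), and Ccna2, the cyclin of S phase and G2, from 3.23 to 9.61 (1.33). In each of these 5 genes TCM siNT lay above both SFM libraries that had siFN and below the other 5.

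Of 40 mitosis genes in the list, 11 passed the FPKM filter. Of the 23 that averaged an FPKM of at least 1, 14 rose and the other 9 stayed short of 1, all lay above 0, and the differences ran from 0.64 (Mki67) to 1.61 (Ccnb1) with a median of 1.12. Of all 6917 rows with such an average, 108 rose (1.56%) and 3932 lay above 0. The kinases Aurka (0.973 and 3.80) and Plk1 (1.15 and 3.81) were among the 14, at levels near the lower end of what was measured. Cdca3, a cell division protein outside the list, was among the 15 largest rises, from 6.96 to 22.2 (1.54). Other rises outside the lists, named after their values were seen, were Psrc1 (1.35) and Gtse1 (1.34), which bind microtubules, the centrosomal kinase Nek2 (1.32), the microtubule destabiliser Stmn1 (1.27) and Foxm1, a transcription factor of mitotic genes, which rose from 3.09 to 7.26.

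Genes of DNA replication were higher by a smaller amount. Rrm2, the regulated subunit of ribonucleotide reductase (ENSMUSG00000020649.11, chromosome 12, 24708241 to 24714146, plus strand), rose from 8.79 to 28 (1.57), with 26.3 and 25.3 in the TCM libraries that had siFN. The SFM libraries had 25.4, 23, 2.98 and 3.81, so that TCM siKLF4 was the highest of the 8. Its partner Rrm1 rose from 2.81 to 6.88 (1.05), and the replicative helicase subunits Mcm3 (3.13 to 8.31) and Mcm5 (2.68 to 6.72) rose by 1.17 and 1.07. Uhrf1, which keeps up DNA methylation at replication, rose by 1.17, whereas the licensing factor Cdt1, at 5.58 and 11.5, stayed short of 1 with 0.92. Of 38 list genes, 12 passed the FPKM filter. Of the 28 that averaged an FPKM of at least 1, 6 rose, all were above 0, and the median was 0.70, from 0.06 (Rpa3) to 1.57. Over all 6917 rows chosen in that way, 108 rose (1.56%) and 3932 were above 0.

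G1 regulators and p53 targets had no member at 1. Over 9 G1 genes the median was 0.53, and it was 0.04 over the 5 that reached an FPKM of 10, with Ccnd1 (cyclin D1) at 4.51 and 7.91 (0.69), the inhibitor Cdkn2d at 3.82 and 7.23 (0.77), and Ccnd2 the other way at 41.6 and 32.8 (-0.34). Over 17 p53 targets the median was 0.34, and 14 lay above 0, against 3932 of all 6917 rows averaging an FPKM of at least 1. Cdkn1a, the inhibitor p21, had 30.3 and 52.2 (0.77), Phlda3 36.3 and 68.9 (0.91) and Ccng1 22 and 44.7. Gadd45a, a stress gene shared with the ATF4 list, had 94.4 and 51.5 (-0.86). Inhibitors and drivers of the cell cycle thus had differences of the same sign in this pair, apart from Ccnd2 and Gadd45a among the genes named here.

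**Figure D2:**
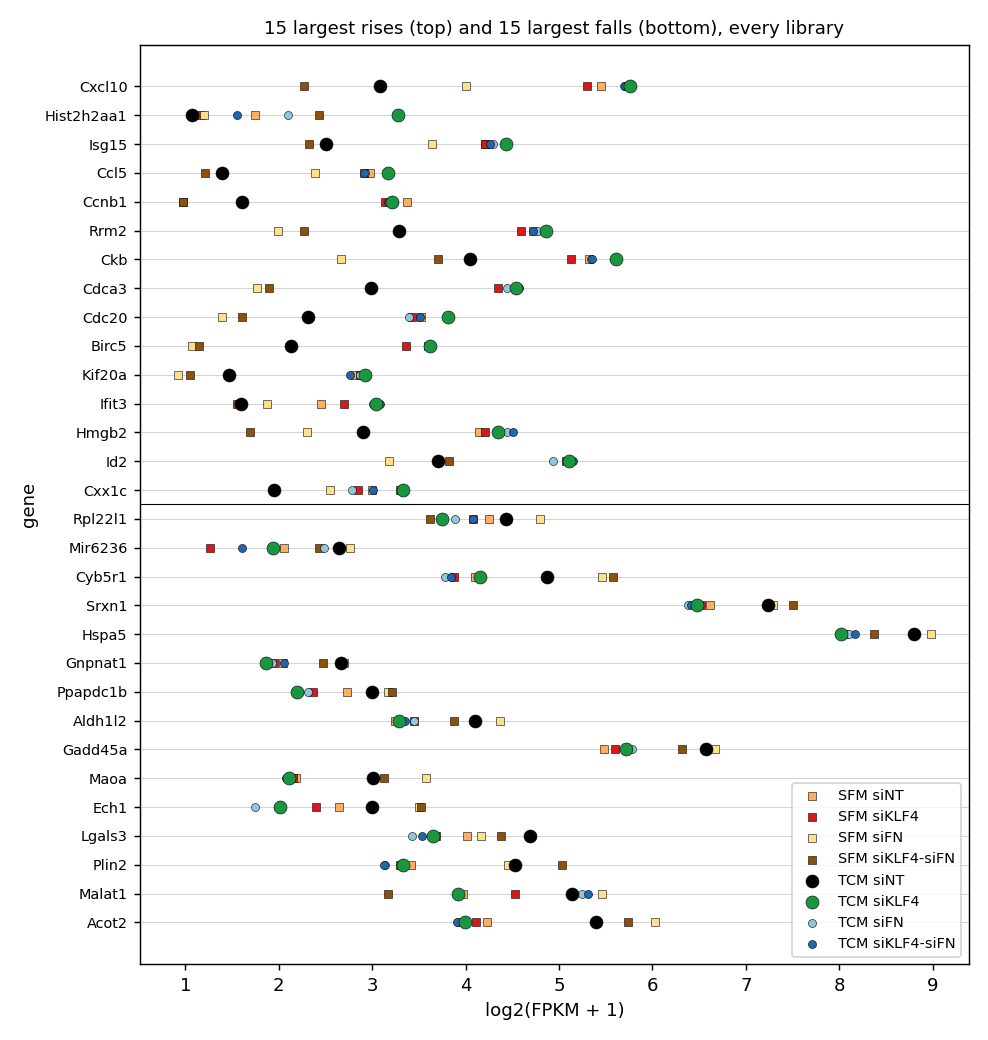
Levels as log2(FPKM + 1) in every library for the 15 largest rises (above the line) and the 15 largest falls (below it) among named genes, squares for SFM and circles for TCM. The large black circle is TCM siNT and the large green circle TCM siKLF4. For Ccnb1 the green circle lies with TCM siFN, TCM siKLF4-siFN, SFM siNT and SFM siKLF4, at FPKM values of 7.83 to 9.38.

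Among the remaining large rises, Hist2h2aa1, a histone H2A gene, had 1.11 in TCM siNT and 8.66 in TCM siKLF4 (2.20). Its other 6 values were 1.25 to 4.41, so here TCM siKLF4 was the library that stood out. The near-identical gene Hist2h2aa2 went the other way, at 31.1 and 21.5 (-0.52), and reads of such copies may have been split between them. Over 15 histone genes the median was 0.28 with 2 rises, where 1.56% of the 6917 rows averaging an FPKM of at least 1 rose. Ckb, the brain creatine kinase, rose from 15.6 to 47.9 (1.56), with 5.35 and 12 in both SFM libraries with siFN and 34.1 to 40.0 in the others. Hmgb2, a chromatin protein of dividing cells, rose by 1.44, Id2, an inhibitor of helix-loop-helix factors, from 12 to 33.5 (1.40) and Cxx1c from 2.87 to 9.03 (1.37). Mc1r, the melanocortin receptor that drives pigment formation, rose from 8.24 to 22.5 (1.35), and, as for Ckb, its lowest values were those of SFM with siFN, 3.96 without and 6.65 with siKLF4. It was the only member of 7 genes of the melanocyte lineage list past 1 (median 0.28).

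Over 8 melanin enzymes and melanosome proteins the median was 0.10, against -0.0022 over the 7 that passed the FPKM filter, and none reached 1. Tyrp1, an enzyme of eumelanin synthesis, had 298.0 and 207.7 (-0.52), while Pmel, the fibril protein of melanosomes, had 67.3 and 88.6 (0.39).

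The largest fall of the pair was that of Gm10800 (-2.39), a gene model annotated as protein coding and named after its value was seen. It had 11.8 in TCM siNT, 1.44 in TCM siKLF4 and 0.916 to 4.15 in the other libraries, so TCM siNT stood out in this fall. Among named genes the largest was that of Acot2, a mitochondrial thioesterase that releases fatty acids from coenzyme A (ENSMUSG00000021226.7, chromosome 12, 83987861 to 83993873, plus strand), from 41.2 to 15 (-1.40), or 2.75-fold in FPKM. It had 14.1 and 14 in the TCM libraries with siFN, and 17.8, 16.2, 64.0 and 52.4 in the SFM libraries in the order given for Ccnb1. TCM siNT was again nearer to the SFM libraries with siFN than to any other. Plin2, the coat protein of lipid droplets, fell from 22.1 to 9.06 (-1.20), and Ech1, an isomerase of fatty acid oxidation, had 6.99 and 3.04. Fabp5, a fatty acid carrier, rose from 24.8 to 53.2 (1.07). Over 15 genes of lipid droplets and fatty acid oxidation, 1 rose and 2 fell, and the median was -0.13, or -0.30 over the 8 that passed the FPKM filter. Of the 6917 rows averaging an FPKM of at least 1, 1.56% rose and 0.217% fell.

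Cholesterol and fatty acid synthesis showed small differences of 1 sign. All 29 genes that averaged an FPKM of at least 1 lay above 0, none reached 1, and the median was 0.32. Of all 6917 rows with such an average, 3932 lay above 0. Pmvk, a kinase of the mevalonate pathway, had 3.35 and 6.72 (0.83), Scd2, a desaturase, 248.8 and 377.4 (0.60), and Scd1 36.2 and 54.0 (0.56). Tm7sf2 was lowest at 0.04.

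Malat1, a nuclear noncoding RNA, fell from 34.2 to 14.1 (-1.22), with 36.9 and 38.7 in the other TCM libraries and 14.7, 22, 43.1 and 8.01 in the SFM libraries. Unlike Acot2, its TCM siKLF4 value was the one away from the other TCM libraries. Lgals3, which encodes galectin-3, fell from 24.7 to 11.6, and its TCM siNT value was the highest of the 8. The small nuclear RNA gene Rn7sk, an inhibitor of transcription elongation, rose from 17.8 to 42.4 (1.21), and Rn7s1, of the signal recognition particle, from 1.88 to 6.23 (1.33) with a counting error of 0.41 on that scale. Its sister gene Rn7s2 had 14.6 and 16.04 (0.13), and reads of these copies too may have been split.

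Genes of protein folding were lower. Hspa5, the main chaperone of the endoplasmic reticulum, stood at 446.2 in TCM siNT and 258.6 in TCM siKLF4 (-0.78), with 275.1 and 285.9 in the other TCM libraries and 257.6, 264.4, 503.9 and 329.0 in the SFM libraries. TCM siNT was the second highest of the 8. Hyou1 and Dnajb9, its co-workers, had differences of -0.68 each. Of 19 chaperone genes, 18 lay below 0 and none reached 1, with a median of -0.28. Of all 6917 rows that averaged an FPKM of at least 1, 2985 lay below 0. Of 18 ATF4 and CHOP targets, 15 lay below 0 (median -0.26), among them Ppp1r15a, which restarts translation, at 129.4 and 99.3 (-0.38), and Cebpb at 42.1 and 31.5 (-0.41). Of 19 genes of amino acid uptake and serine synthesis, 16 lay below 0 (median -0.19), with Aldh1l2, a mitochondrial folate enzyme, at 16.1 and 8.73 (-0.81). Maoa, an amine oxidase, had 7.05 and 3.31 (-0.90), and Srxn1, an NRF2 target that repairs peroxiredoxins, 149.7 and 87.9 (-0.76). None of these differences reached 1.

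**Figure D3:**
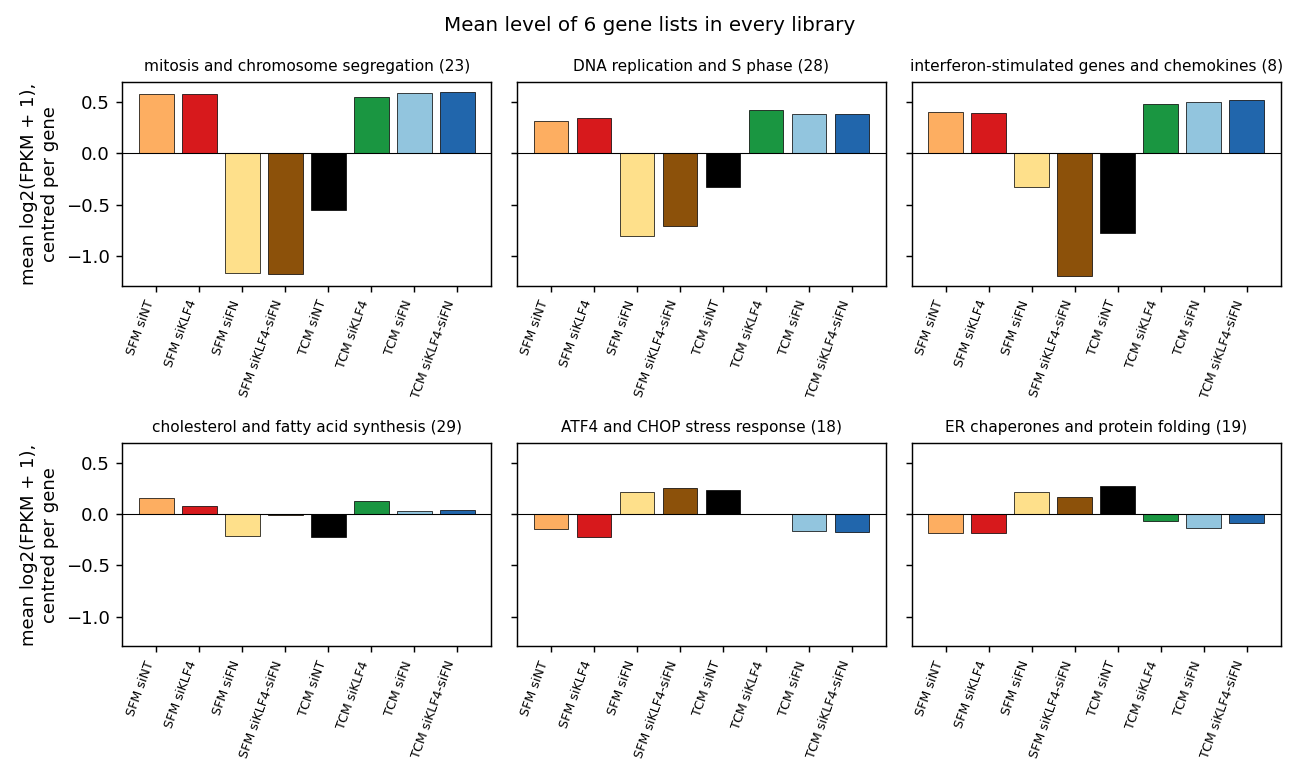
Mean of log2(FPKM + 1), centred per gene, for 6 gene lists in every library, with the number of genes in brackets. Bars are means over genes of 1 library each and carry no error. For mitosis genes TCM siNT stood at -0.56 and TCM siKLF4 at 0.55, and for ATF4 and CHOP targets at 0.24 and -0.0016.

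The list of the invasive and mesenchymal melanoma state had a median of 0.40 over 7 genes, none of which reached 1, and a median of 0 over all 22. Its most abundant member Vim, the intermediate filament protein vimentin, had 163.2 and 215.1 (0.40), and Nes, which encodes nestin, 12.5 and 17.2 (0.42). Among other lists, medians were 0.19 for 47 genes of the respiratory chain and ATP synthase, 0.15 for 26 genes of glycolysis and hypoxia, -0.07 for 74 cytosolic ribosomal proteins, 0.03 for 30 proteasome subunits, and -0.03 for 12 integrins and matrix receptors. Zyx, an adhesion protein in that list, had 50.9 and 33.3 (-0.60), and Ctsl, a lysosomal protease, 85.5 and 53.6 (-0.66). Neither the list of homologous recombination nor that of melanosome transport had a gene past the FPKM filter.

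The same siRNA was compared in 2 pairs that share no library with this one. In SFM, siKLF4 against siNT gave 14 rises (0.519%) and 17 falls (0.63%) in 2697 features. On TCM matrix with siFN, siKLF4-siFN against siFN gave 6 rises (0.232%) and no falls (0%) in 2589 features. None of the 68 rises or 9 falls was past 1 in the same direction in either pair, a share of 0% of each list. At the low shares given above for all features, lists of this length would be likely to hold none, so the 0% is not particular to these genes. In the opposite direction, 3 of the 68 rises fell in the SFM pair and 1 of the 9 falls rose there, all gene models. The mitosis median of 1.12 stood beside -0.01 in the SFM pair and 0.01 in the siFN pair, with single genes between -0.49 and 0.49 and between -0.11 and 0.22. For interferon genes 1.35 stood beside -0.03 and 0.00, and for DNA replication 0.70 beside 0.01 and 0.01. The differences between pairs were not tested, as each pair is 2 single libraries.

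**Figure D4:**
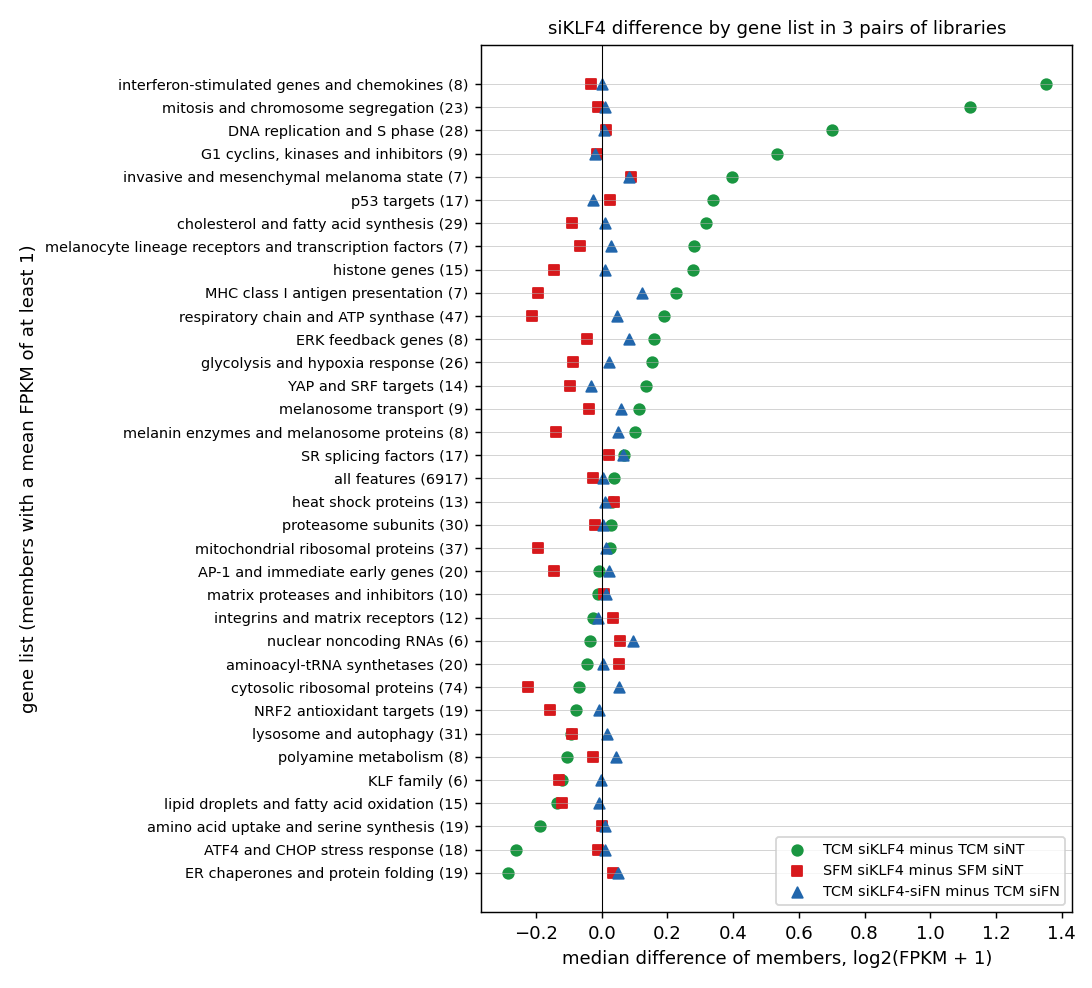
Median difference on the log2(FPKM + 1) scale of each list with at least 5 genes, with the number of genes in brackets, for 3 pairs of single libraries. Circles give TCM siKLF4 minus TCM siNT, squares the SFM pair and triangles the pair with siFN. The circles run from -0.28 (chaperones) to 1.35 (interferon genes).

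In the 68 genes that rose, TCM siKLF4 was within 0.5 of SFM siNT in 52 (76.5%), of TCM siFN in 58 (85.3%) and of TCM siKLF4-siFN in 60 (88.2%). Over all 2780 features these shares were 87.4%, 94.3% and 94.2%, so the genes that rose were no closer to those libraries than features in general. For TCM siNT the shares were 5.88% with SFM siNT and 7.35% with TCM siFN, against 79.0% and 84.4% of all features, and 33.8% with SFM siFN, against 85.9%. TCM siNT lay below the 6 libraries outside the pair in 17 of the 68 (25%, against 4.57% of all features), and TCM siKLF4 above all 6 in 33 (48.5%, against 17.4%). Because both libraries of the pair chose these genes, the counts are a description. Fewer cells in division and less RNA of these genes in each cell cannot be told apart in bulk RNA.

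Of the 77 features past 1, 28 were processed pseudogenes, copies of spliced RNA whose reads are hard to keep apart from those of the parent gene. In a search added after the values were seen, each of the 28 had a closest coding gene, at 93.6% to 100% identity over the matched stretch. Of the 24 that rose, 7 had a coding gene that had also risen (5 distinct genes). A difference above 0 was found in the coding gene of 21, against 55.9% of all features, and a difference within 0.5 of 0 in that of 14, against 88.0% of all features. Gm12856 went from 1.29 to 5.95 and its closest gene is Ccnb1, Gm13167 from 1.95 to 15 and Gm13237 from 73.1 to 170.0 with Hmgb2 as closest gene, and Gm6166 from 29.8 to 90.4 beside Fabp5. Gm5424 stood at 8.33 and 31.8 and its closest gene Ass1 at 0.10 and 0.401, a level so low that the scale puts its difference at 0.35. All 4 pseudogenes that fell had a coding gene below 0, such as Gm10154 (5.04 to 0.366) and the ribosomal protein gene Rpl34 (22.1 to 16.3). Values of these pseudogenes and of their closest genes are uncertain, since how reads were counted is not given in the sources used here.

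**Figure D5:**
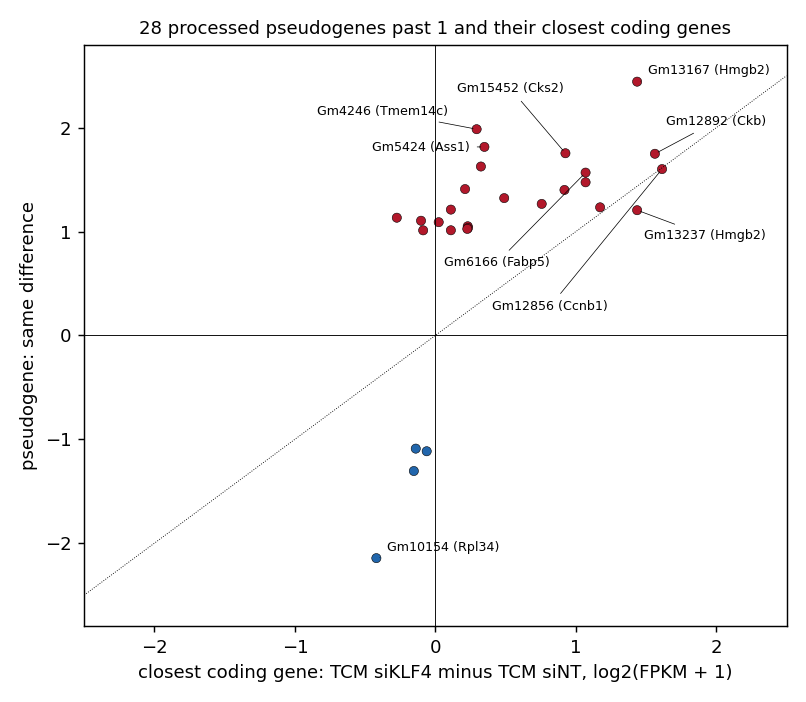
Difference of the 28 processed pseudogenes past 1 (y) against that of their closest coding gene (x), both TCM siKLF4 minus TCM siNT on the log2(FPKM + 1) scale, red for rises and blue for falls. The dotted line marks equal differences. Of the 24 rises, 21 lie to the right of 0 and 7 at or beyond 1 on the x axis.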

How the data were processed

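RNA of B16-F10 cells was measured in 8 libraries, 1 per group, so no comparison has replicates. The authors deposited FPKM values, 46477 rows by 8 columns. The submitters' processing notes name STAR 2.4.1d, Partek and mm10. How reads were counted, and on which annotation, is not given in the sources used here. Splitting of reads between copies or overlapping genes would move their FPKM values.

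Differences of log2(FPKM + 1) were taken in rows reaching an FPKM of 5 in either library and called at a size of 1, with no test (Python 3.11.15, pandas 2.3.3, numpy 2.4.6, matplotlib 3.10.9). The calculation was run on a copy of TCM siNT with planted changes and no added noise, which checks the arithmetic only. Symbols matched GENCODE M21 (GRCm38, the assembly of mm10) for 2639 of the 2780 features (94.9%). Of all rows, 27 have date-like names and 4 share a name.

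Depth was estimated from FPKM steps in genes with 1 annotated transcript over 600 nucleotides. Only 44.1% to 46.7% of low values (under 15 reads) came within 0.05 of whole reads, so depths and counting errors are approximate, cover counting error only, and no count test was run.

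Named genes are the 15 largest rises and falls, passing over gene models, up to 6 per list by size, markers with an FPKM of at least 1, and Klf4 and Fn1. Outside this rule, and chosen after their values were seen, are the pseudogenes and their coding genes, the genes nearest the thresholds, Aurka, Plk1, Mki67, Irf1, Ifit2, Bst2, Rpa3, Tm7sf2, Ifitm3, Psrc1, Gtse1, Nek2, Stmn1, Foxm1 and Gm10800. The members, the 35 gene lists and 5 marker lists were chosen with earlier results of these data known. The filter on a mean FPKM of at least 1, the pseudogene search (blastn against coding transcripts, e-value 1e-20, leaving out coding genes with Gm names) and the rule for printing promoters were added after the data were seen. Promoter matches had been seen when that rule was set. The pattern for gene models was widened after the called rows were seen, which changed none of the named genes and no count of the TCM pair. Alternatives were other pseudocounts, filters, scalings and sizes.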

Additional observations from a re-analysis of the deposited data

Results flagged for a closer look

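In 4 gene models, the difference passed 1 in the TCM pair and passed 1 in the opposite direction in the SFM pair. They were 3 of the 68 rises (4.41%), against 0.63% of SFM features that fell, and 1 of the 9 falls (11.1%), against 0.519% that rose. Nearly all calls of the SFM pair were gene models, since 1 rise and 2 falls remained without them. Values of such models are uncertain, as how reads of copies or overlapping genes were counted is not given. With 1 library a side, the difference between the pairs was not tested. Gm13167, a pseudogene whose closest gene is Hmgb2, had 2.44 in TCM and -1.08 in SFM. Gm6682, closest to Tuba1c, had 1.63 and -1.58. Gm20463, an antisense gene, had 1.43 and -1.10. Gm38317, closest to Itgb5, had -1.31 and 1.16.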

How the results depend on the processing

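No paired analysis was possible because each group has 1 library and no label gives replicate numbers that pair them, and for the same reason no replicate could be left out. The counts of 68 rises and 9 falls became 137 and 20 with a filter at an FPKM of 1 or with no filter, 186 and 57 at 1.5-fold, and 39 and 4 without gene models. They became 108 and 15 with a mean FPKM of at least 1 (added after the data were seen), and the 68 became 31 at an FPKM of 10. In the SFM pair, 14 rises and 17 falls became 32 and 35 at an FPKM of 1 or with no filter, 8 and 9 at 10, 67 and 105 at 1.5-fold, and 1 and 2 without gene models. In the pair with siFN, 6 rises and 0 falls became 22 and 23 at an FPKM of 1 or with no filter, 12 and 19 at 1.5-fold, and 1 rise at 10 and 1 without gene models. Its 0 falls became 2 with a pseudocount of 0.1, with upper-quartile scaling and with the median set to 0. The other 18 counts stayed within 1.5 times. The cause was not tested, beyond the filters and sizes admitting more or fewer rows.

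Of the 77 calls, 69 remained with upper-quartile scaling and 72 with the median set to 0, and no fall was lost. Foxm1 dropped to 0.95 and 0.97, and Rrm1 to 0.99 with upper-quartile scaling.

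Medians over the genes that passed the FPKM filter were taken again under each setting. For interferon genes 1.78 became 0.99 at an FPKM of 1 and 0.23 with no filter. For mitosis 1.33 became 1.68 with a pseudocount of 0.1, 1.02 at an FPKM of 1 and 0.78 with no filter. For G1 genes 0.53 became 0.038 at an FPKM of 10. Beside the medians over genes averaging an FPKM of 1, p53 targets (0.34) had 0.66 at an FPKM of 10 and 0.12 with no filter. Chaperones (-0.28) had -0.44 over 12 genes at 10, and lipid droplet genes (-0.13) -0.72 over only 4 genes. Melanocyte lineage genes (0.28) had 0.93 at 10, over only 2 genes, and 0.11 with no filter. These sign changes were found. At an FPKM of 10, mitochondrial ribosomal proteins had -0.0611, heat shock proteins -0.0047 and polyamine metabolism 0.022. With upper-quartile scaling, MHC class I had -0.0598, mitochondrial ribosomal proteins -0.0096, proteasome subunits -0.0229, YAP and SRF targets -0.0052 and SR splicing factors -0.0153. With the median set to 0, MHC class I had -0.0404 and proteasome subunits -0.0067. At an FPKM of 1, melanin genes had 0.1009 (also with a mean FPKM of at least 1), integrins 0.0446 and immediate early genes 0.0951. With no filter these had 0.0823, 0.0055 and 0.0623, matrix proteases 0.0222 and heat shock proteins -0.0235. No named gene past 1 changed sign under the alternatives run. With no replicates, the move of a gene was judged against its approximate counting error and that of a list against the spread of its members. Counting error leaves out variation between cultures.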
